A study of Mus musculus with 12 samples.

Results

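The BMP antagonists described here are 9 genes that code for secreted or membrane proteins that oppose bone morphogenetic proteins (BMPs) and activins, and they were chosen by name: Grem1, Nog, Chrd, Chrdl1, Chrdl2, Nbl1, Fst, Fstl3 and Bambi. All 9 were found among the 49585 genes of the count files, and all 9 were among the 18648 genes tested. RNA was measured in 4 mesenchymal populations of male wild-type C57BL/6 mice aged 8 to 10 weeks at steady state, with 3 libraries of 2000 sorted cells per population, and no animal carried a transgene or received a treatment. All populations were negative for CD45, Ter119 and CD31. Itga8+ MSCs were Alcam+Sca-1- cells with surface integrin α8, Itga8- BLCs were Alcam+Sca-1- bone-lining cells without it (osteoblasts in the sample labels), and Sca-1+ MSCs were Alcam-Sca-1+ cells. These 3 populations came from collagenase-digested bone fragments after the marrow was flushed out, whereas CD51+CD140a+ MSCs came from flushed marrow digested with Accumax, so that for every difference from CD51+CD140a+ MSCs the population and the isolation cannot be told apart. Whether libraries of a population came from separate animals is not stated, and p-values measure the spread between these libraries. The design asks how Itga8+ MSCs differ from the other mesenchymal populations of bone.

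BMPs are secreted ligands of the TGF-β superfamily that bind paired type I and type II receptors, which phosphorylate Smad1, Smad5 and Smad9 (activins act through Smad2 and Smad3). Antagonists act mostly outside the cell, by binding ligand and keeping it from the receptor. Noggin (Nog), chordin (Chrd) and the chordin-like proteins (Chrdl1, Chrdl2) bind BMPs, gremlin 1 (Grem1) and Nbl1 belong to the DAN family of cystine-knot antagonists, and follistatin (Fst) and follistatin-like 3 (Fstl3) bind activins and related ligands. Bambi is a membrane pseudoreceptor without a kinase domain. In bone, BMPs drive osteoblast and cartilage differentiation, and their antagonists are made by the same tissue.

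Between 17580677 and 31332475 reads were counted on genes in each library. Levels are given as CPM (counts scaled to a common library total with TMM factors) where a gene is compared between libraries, and as TPM (also divided by exon length) where genes are compared with each other. A gene was called different between 2 populations when edgeR's quasi-likelihood test over all 18648 genes gave an FDR below 0.1 and the fold change exceeded 2. Fewer cells that express a gene and less RNA per cell cannot be told apart in these bulk samples. Of the genes behind the sorting antigens, Ly6a and Alcam followed the labels, Itga8 separated Itga8+ MSCs from Itga8- BLCs but not from CD51+CD140a+ MSCs, and those of the CD51+CD140a+ sort did not set that population apart from Sca-1+ MSCs. Itga8 was 103 ± 85.6 CPM (SD, n = 3) in Itga8+ MSCs and 1.74 ± 2.11 CPM in Itga8- BLCs, with 64.3 ± 16.2 CPM in CD51+CD140a+ MSCs, whose libraries overlapped those of Itga8+ MSCs (edgeR adjusted p = 0.503). Ly6a, which codes for Sca-1, was 635 ± 23.9 CPM in Sca-1+ MSCs and at most 35.7 CPM in any other library. Alcam was between 1.29 and 5.81 CPM in the Alcam+ libraries and at most 0.221 CPM in the others. Pdgfra, which codes for CD140a, was 767 ± 93.4 CPM in CD51+CD140a+ MSCs and 874 ± 142 CPM in Sca-1+ MSCs (edgeR adjusted p = 0.893), above at most 148 CPM in the Alcam+ libraries. Itgav, which codes for CD51, was 164 ± 38.3 and 134 ± 14.1 CPM in the same populations and was called in no comparison (lowest edgeR adjusted p 0.122). Ptprc (CD45) and Pecam1 (CD31), negative in every sort, had means of 8.55 to 17.3 and 3.99 to 6.4 CPM in the 4 populations. Summed cartilage markers reached 25800 to 127000 CPM in Itga8+ MSCs and 16900 to 85700 CPM in Itga8- BLCs, against at most 2960 CPM elsewhere. Col2a1 alone had 57700 ± 49000 and 34200 ± 28900 CPM in these populations. Of the 10 markers, 9 were called higher in each of them than in Sca-1+ MSCs (12.9% and 14.5% of all genes), and 10 than in CD51+CD140a+ MSCs (21.2% and 20.4%). The remaining 1, Prg4, named after its values were seen, was called higher in Sca-1+ MSCs than in either (8.89% and 11.9%). The 11 myeloid and lymphoid markers summed to 2300 to 11900 CPM in Itga8+ MSCs and 4350 to 6490 CPM in Itga8- BLCs, against at most 1720 CPM elsewhere. Itga8+ replicate 2 and Itga8- replicate 3 stood apart: genes with a longest transcript over 4000 bases took 17.2% and 20.6% of their counts, against 31.1% to 52.6% in the other 10 libraries, and mitochondrial genes took 0.546% and 0.359%, against at most 0.0996%. Antagonist results whose call these libraries changed are given with and without both, and sums of TPM with each of them left out.

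Nbl1 was the leading antagonist in all 9 libraries from bone fragments and Chrdl1 in all 3 CD51+CD140a+ libraries. Per exon length, the 9 genes summed to 610 ± 207 TPM in Itga8+ MSCs, 769 ± 63.8 TPM in Itga8- BLCs, 2773 ± 230 TPM in Sca-1+ MSCs and 2572 ± 184 TPM in CD51+CD140a+ MSCs (SD, n = 3 each). Without Itga8+ replicate 2 the mean sum in Itga8+ MSCs was 728 TPM, and without Itga8- replicate 3 that in Itga8- BLCs was 736.9 TPM. The Alcam+ libraries reached at most 833.8 TPM, below the lowest of the other 6 libraries at 2396 TPM. The order of the 2 highest sums depends on the length used, since with the longest transcript in place of all exons they were 2497 TPM in Sca-1+ and 3212 TPM in CD51+CD140a+ MSCs. Nbl1 made up 92.4 ± 0.24% of the sum in Sca-1+ MSCs. In CD51+CD140a+ MSCs, Chrdl1 made up 80.9 ± 1.64% and Fst 11.5 ± 1.55%. The Alcam+ populations were more mixed, with Nbl1 at 57.8 ± 6.09%, Chrdl1 at 18.1 ± 5.27% and Bambi at 12 ± 7.08% in Itga8+ MSCs, and Nbl1 at 47.9 ± 2.73% and Bambi at 37.3 ± 6.84% in Itga8- BLCs. Bambi was at 20% in Itga8+ replicate 2, against 9.28% and 6.6% in the other Itga8+ libraries. Chrdl1 was at 2.69% in Itga8- replicate 3, against 9.7% and 10.4% in the other Itga8- libraries. Nog, Chrdl2 and Chrd each stayed at or under 2.57% of the sum, a value reached by Chrd in an Itga8+ library.

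**Figure D1:**
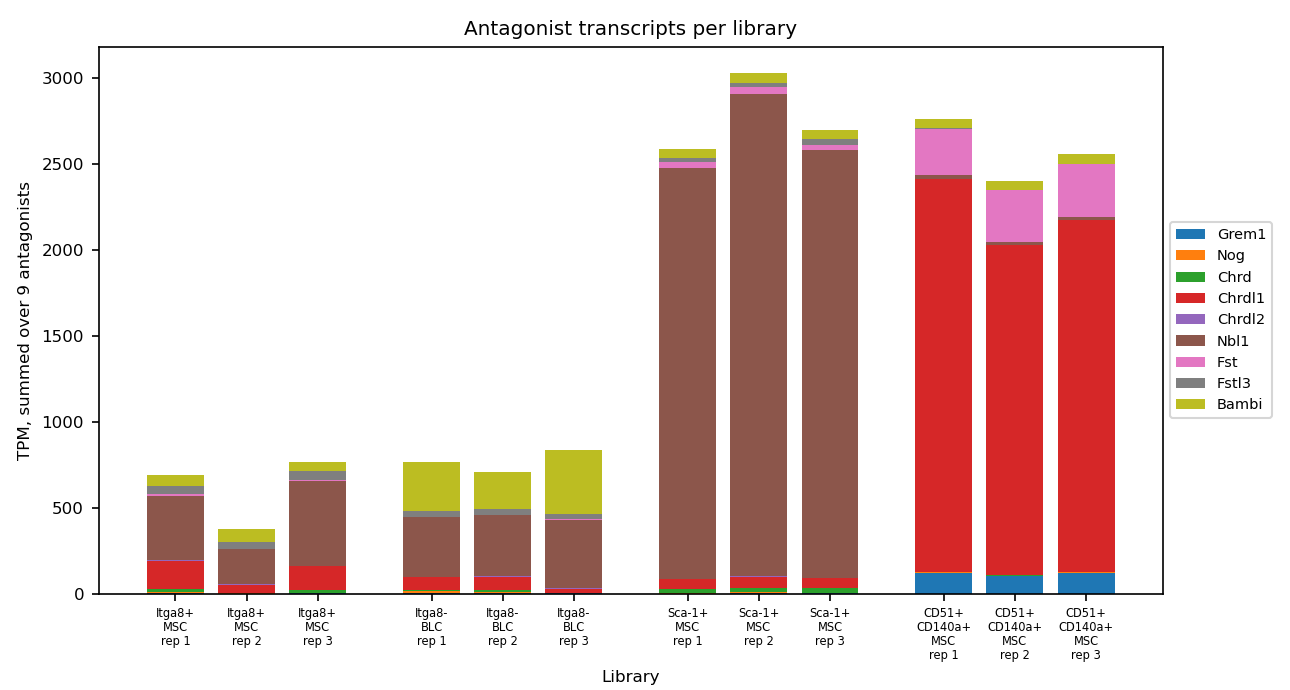
Stacked bars give the TPM of the 9 antagonists in each of the 12 libraries, grouped by population, with the y axis in TPM from 0. The bars of Sca-1+ MSCs are almost all Nbl1 (92.4% on average) and those of CD51+CD140a+ MSCs mostly Chrdl1 (80.9%), while the bars of the Alcam+ populations reach at most 833.8 TPM.

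The number of antagonists called ranged from 1 between the Alcam+ populations to 8 between Itga8- BLCs and CD51+CD140a+ MSCs. Between Itga8+ MSCs and Itga8- BLCs, 0 of 9 antagonists were called higher in Itga8+ MSCs (1.66% of all genes tested were) and 1, Bambi, was called higher in Itga8- BLCs (2.16% of all genes). By edgeR 2 of the 9 had an unadjusted p under 0.05 there, Bambi and Chrdl1, and DESeq2 and limma-trend also called Bambi alone. In the comparison with Sca-1+ MSCs, 0 were called higher in Itga8+ MSCs (12.9% of all genes were), although Chrdl1 and Fstl3 had an unadjusted edgeR p under 0.05 and DESeq2 called Chrdl1. Fst and Nbl1 were called higher in Sca-1+ MSCs (8.89% of all genes). In the comparison with CD51+CD140a+ MSCs, 4 of 9 were called higher in Itga8+ MSCs (21.2% of all genes), namely Chrd, Chrdl2, Fstl3 and Nbl1, and 3, Chrdl1, Fst and Grem1, were called higher in CD51+CD140a+ MSCs (14.3% of all genes). Between Itga8- BLCs and Sca-1+ MSCs, Bambi was called higher in Itga8- BLCs (14.5% of all genes), and Fst and Nbl1 higher in Sca-1+ MSCs (11.9% of all genes). Between Itga8- BLCs and CD51+CD140a+ MSCs, 8 of 9 were called, 5 higher in Itga8- BLCs (20.4% of all genes) and 3 higher in CD51+CD140a+ MSCs (14.9% of all genes). Between Sca-1+ and CD51+CD140a+ MSCs, 4 were called higher in Sca-1+ MSCs (11.2% of all genes) and 3 higher in CD51+CD140a+ MSCs (9.30% of all genes). The 3 comparisons with CD51+CD140a+ MSCs share those libraries, and Chrd, Chrdl2, Fstl3 and Nbl1 on one side and Chrdl1, Fst and Grem1 on the other stood in each of them. Median log2 fold changes over the 9 genes were 0.04, 0.31, 0.60, 0.56, 2.25 and 0.25 in the 6 comparisons in the order given, beside medians of 0.08, 0.16, 0.18, 0.12, 0.09 and -0.00 over all genes, and setting Chrdl2 to its bound left them at the same values. Nog was called in none of the 6 (its lowest adjusted p was 0.226).

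**Figure D2:**
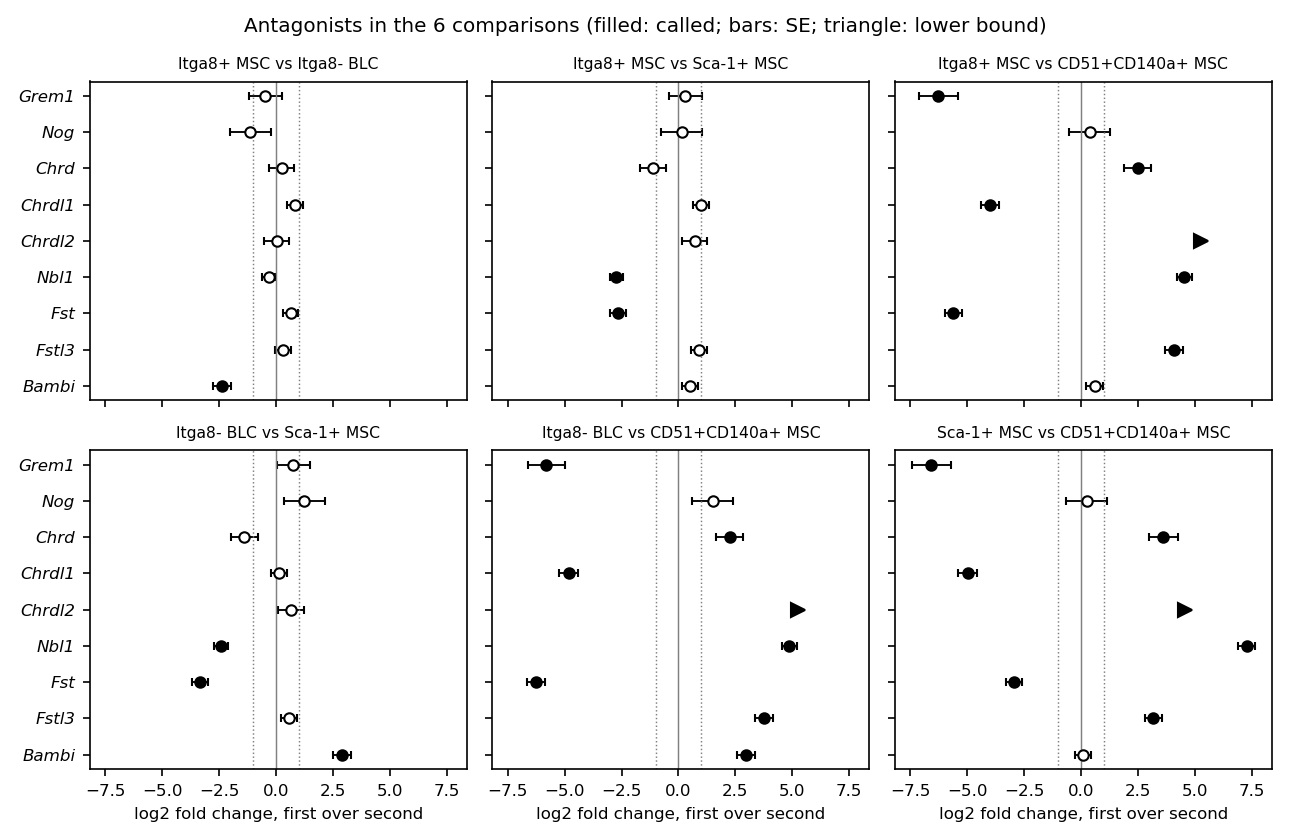
Log2 fold changes (first population over second, x axis) of the 9 antagonists in the 6 comparisons from edgeR, with SE bars, filled symbols for called genes, dotted lines at a fold change of 2 and triangles at the lower bound where 1 population had no count. The lower right panel shows Nbl1 at 7.28 and Grem1 at -6.57 within 1 comparison.

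Chrdl1, Fst and Grem1 were highest in CD51+CD140a+ MSCs. Chrdl1 (chrX:143285674-143394262, minus strand, mm10 as all positions here), a chordin relative that binds BMP4, had 3560, 3340 and 3590 CPM in replicates 1, 2 and 3 of CD51+CD140a+ MSCs. The same gene had 286, 132 and 247 CPM in Itga8+ MSCs, 151, 152 and 66.6 CPM in Itga8- BLCs, and 102, 122 and 110 CPM in Sca-1+ MSCs. Every CD51+CD140a+ library was thus above every other library, with log2 fold changes of -3.98 ± 0.397 (SE) for Itga8+ MSCs, -4.83 ± 0.413 for Itga8- BLCs and -4.98 ± 0.416 for Sca-1+ MSCs over CD51+CD140a+ MSCs (edgeR adjusted p = 2.53e-05, 8.55e-06 and 6.99e-06).

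The other 3 populations lay closer together in Chrdl1. Its lowest Itga8+ library (132 CPM) lay above the highest Sca-1+ library (122 CPM), and the log2 fold change of Itga8+ over Sca-1+ MSCs was 1.00 ± 0.355, with an edgeR adjusted p of 0.0775 and a fold that did not exceed the limit of 2. Chrdl1 was therefore not called, and 6 of 11 alternative settings left it so. Without Itga8+ replicate 2, the log2 fold change was 1.25 (edgeR adjusted p = 0.0221), and without both libraries with few counts on long transcripts it was 1.29 (adjusted p = 0.000575). Against Itga8- BLCs, where libraries overlapped, the log2 fold change was 0.85 ± 0.354 (edgeR adjusted p = 0.34), which became 1.14 (adjusted p = 0.0865) without Itga8+ replicate 2 and was 0.85 without both libraries (adjusted p = 0.0424). Itga8- BLCs over Sca-1+ MSCs gave 0.15 ± 0.352 (edgeR adjusted p = 0.798), and 0.45 (adjusted p = 0.0695) without both libraries, which is under the fold limit, and neither was called.

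Fst (chr13:114452290-114458951, minus strand), which codes for the activin-binding protein follistatin, formed 3 levels. It had 284, 359 and 367 CPM in CD51+CD140a+ MSCs and 41.9, 52.0 and 37.5 CPM in Sca-1+ MSCs. In the Alcam+ populations it had 10.6, 5.61 and 4.62 CPM in Itga8+ MSCs and 4.18, 3.61 and 5.39 CPM in Itga8- BLCs. The steps from CD51+CD140a+ to Sca-1+ MSCs (log2 fold change of Sca-1+ over CD51+CD140a+ MSCs -2.94 ± 0.348, edgeR adjusted p = 9.35e-05) and from Sca-1+ to Itga8+ MSCs (Itga8+ over Sca-1+ MSCs -2.66 ± 0.346, adjusted p = 0.000489) were both called, and the Alcam+ populations overlapped (0.66 ± 0.333, adjusted p = 0.477). Of the exon bases of Fst, 2.51% lie opposite exons of Gm47040.

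Grem1, an antagonist of BMP2 and BMP4 used to mark skeletal progenitors, was counted at 2 to 63 reads per library outside CD51+CD140a+ MSCs. CD51+CD140a+ MSCs had 114, 110 and 132 CPM. Itga8+ MSCs had 3.12, 0.623 and 0.866 CPM, Itga8- BLCs 2.04, 1.71 and 2.64 CPM, and Sca-1+ MSCs 0.111, 1.63 and 1.97 CPM. The log2 fold changes over CD51+CD140a+ MSCs were -6.26 ± 0.844 for Itga8+ MSCs, -5.80 ± 0.824 for Itga8- BLCs and -6.57 ± 0.857 for Sca-1+ MSCs (edgeR adjusted p = 0.000208, 0.000299 and 0.000189). Without Itga8+ replicate 1 the first of these was -7.31. The other 3 populations did not differ from each other beyond their spread (edgeR adjusted p = 0.907, 0.796 and 0.472).

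Chrdl1 and Grem1 were also the closest pair among the 7 antagonists with at least 10 CPM in a library, with a root mean square difference of 0.98 in log2(CPM + 0.5) after centring each gene over the 12 libraries, against 1.47 for Chrdl1 and Fst and 5.15 for Grem1 and Nbl1. CD51+CD140a+ MSCs also held the markers of leptin receptor-positive stroma, whose 8 genes summed to 48200 to 65900 CPM there and to at most 861 CPM elsewhere, with Lepr at 6110 ± 548 CPM and Cxcl12 at 43500 ± 7920 CPM. The 13 immediate early and stress genes summed to 16600 to 22500 CPM there and to 9010 to 12800 CPM elsewhere. Egr1, Jun, Junb and, named after its values were seen, Fosb were called higher in CD51+CD140a+ MSCs than in each other population. In all, 4 of the 13 were higher and 2 lower there than in Itga8+ MSCs (14.3% and 21.2% of all genes), 4 higher and 5 lower than in Itga8- BLCs (14.9% and 20.4%), and 5 higher and 4 lower than in Sca-1+ MSCs (9.30% and 11.2%). The part of these genes in the antagonist levels was not tested.

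The promoter of Grem1 is given because this gene and the Sca-1+ leading gene Nbl1 were farthest apart across populations. The 250 bases before the RefSeq start of Grem1 lie at chr2:113758649-113758898 on the minus strand (GRCm38.p6, the assembly of mm10). They are printed 5′ to 3′ with the palindrome GGCGCC in capitals, known from the BMP-responsive element of Id1. It was searched on both strands together with GTAAACA, a forkhead motif. GGCGCC is in 9.59% and GTAAACA in 3.17% of the 250 bases before the start of 32851 RefSeq promoters, with no correction for base composition.
Grem1: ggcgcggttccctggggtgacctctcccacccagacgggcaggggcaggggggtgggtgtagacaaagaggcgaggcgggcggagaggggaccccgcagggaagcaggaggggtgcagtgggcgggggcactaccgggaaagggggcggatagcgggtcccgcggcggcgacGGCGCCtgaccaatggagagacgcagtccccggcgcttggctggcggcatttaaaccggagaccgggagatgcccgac
This window holds 1 copy of GGCGCC and none of GTAAACA, and 72% of it is G or C, against a median of 52.4% over all promoters. The gene itself lies at chr2:113746164-113758646 in GENCODE M21.

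Nbl1 and Chrd were highest in Sca-1+ MSCs. Nbl1 (chr4:139082284-139092993, minus strand), the founding member of the DAN family, had 1280, 1530 and 1390 CPM in Sca-1+ MSCs. It had 198, 167 and 269 CPM in Itga8+ MSCs and 211, 221 and 357 CPM in Itga8- BLCs. In CD51+CD140a+ MSCs it had 9.15, 9.54 and 8.37 CPM. These are 3 separate levels with no library between them: the Alcam+ populations overlapped each other (log2 fold change of Itga8+ MSCs over Itga8- BLCs -0.32 ± 0.278, edgeR adjusted p = 0.769, and 0.14 without both libraries with few counts on long transcripts) and differed from Sca-1+ MSCs by -2.73 ± 0.297 and -2.41 ± 0.293 (adjusted p = 0.000172 and 0.000214). Sca-1+ over CD51+CD140a+ MSCs gave 7.28 ± 0.366 (edgeR adjusted p = 4.81e-07), the largest difference of any antagonist with counts in all 12 libraries. Itga8+ MSCs and Itga8- BLCs were above CD51+CD140a+ MSCs by 4.55 ± 0.323 and 4.87 ± 0.328 (adjusted p = 2.34e-06 and 1.72e-06).

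Chrd (chr16:20733127-20742384, plus strand) codes for chordin, which binds BMPs until the protease BMP1 or a tolloid protease cleaves it. It had 43.5, 41.9 and 45.8 CPM in Sca-1+ MSCs. It had 21.8, 5.24 and 32.9 CPM in Itga8+ MSCs, 14.8, 27.6 and 8.03 CPM in Itga8- BLCs, and 2.98, 4.53 and 3.09 CPM in CD51+CD140a+ MSCs. All 3 Sca-1+ libraries lay above every other library, but the differences from the Alcam+ populations were not called: the log2 fold change was -1.13 ± 0.571 for Itga8+ MSCs (edgeR adjusted p = 0.19) and -1.38 ± 0.574 for Itga8- BLCs (adjusted p = 0.108) over Sca-1+ MSCs. The 2 lowest of the 6 Alcam+ libraries were the 2 with few counts on long transcripts. Without those libraries the values were -0.65 (edgeR adjusted p = 0.18) and -1.05 (adjusted p = 0.0359), and the second passed both limits. It passed in 5 of 11 alternative settings in all, among them DESeq2 (-1.39, adjusted p = 0.0554), and also without Itga8- replicate 2, where Chrd was at -1.98 (edgeR adjusted p = 0.0454). The first passed without Itga8+ replicate 3, at -1.72 (edgeR adjusted p = 0.066). All 3 populations were called above CD51+CD140a+ MSCs, by 2.50 ± 0.599, 2.25 ± 0.594 and 3.63 ± 0.627 in Itga8+ MSCs, Itga8- BLCs and Sca-1+ MSCs (edgeR adjusted p = 0.00877, 0.0138 and 0.00145). Of the exon bases of Chrd, 3.82% lie opposite exons of Thpo, which had 0.363 to 3.61 CPM in the 12 libraries. Markers of Sca-1+ fibroblasts moved with Nbl1 and Chrd: all 7 were called higher in Sca-1+ MSCs than in Itga8+ MSCs (8.89% of all genes), Itga8- BLCs (11.9%) and CD51+CD140a+ MSCs (11.2%), and they summed to 2710 to 3270 CPM there, against at most 141 CPM elsewhere. The 8 endothelial markers summed to 90.7 to 127 CPM in Sca-1+ MSCs and at most 54.1 CPM elsewhere. Tek made up most of that sum (69.9 ± 20.4 CPM, against at most 4.01 CPM in any other library) and was the 1 endothelial marker called higher in Sca-1+ MSCs, in all 3 comparisons, while Vwf was called lower there than in CD51+CD140a+ MSCs (0.698 against 7.14 CPM). Their part in the antagonist levels was not tested.

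The promoters of Nbl1 (chr4:139092971-139093220, minus strand) and Chrd (chr16:20732877-20733126, plus strand), the 250 bases before each RefSeq start on GRCm38.p6, are given because both genes were highest in Sca-1+ and lowest in CD51+CD140a+ MSCs. Capitals again mark GGCGCC.
Nbl1: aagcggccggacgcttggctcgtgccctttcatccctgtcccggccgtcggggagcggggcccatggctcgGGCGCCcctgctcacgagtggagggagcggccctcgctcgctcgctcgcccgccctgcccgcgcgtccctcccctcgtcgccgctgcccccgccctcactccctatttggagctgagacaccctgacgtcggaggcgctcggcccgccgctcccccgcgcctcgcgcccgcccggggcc
Chrd: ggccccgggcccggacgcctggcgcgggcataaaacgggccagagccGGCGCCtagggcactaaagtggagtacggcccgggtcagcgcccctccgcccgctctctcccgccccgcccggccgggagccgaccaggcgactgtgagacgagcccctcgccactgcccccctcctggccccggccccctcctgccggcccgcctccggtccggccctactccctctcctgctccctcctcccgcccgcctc
Each holds 1 copy of GGCGCC and none of GTAAACA, and 77.6% and 78% of their bases are G or C. GGCGCC was also in the promoter of Grem1, which was highest in CD51+CD140a+ MSCs. The part of this motif in the levels of these genes was not tested.

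**Figure D3:**
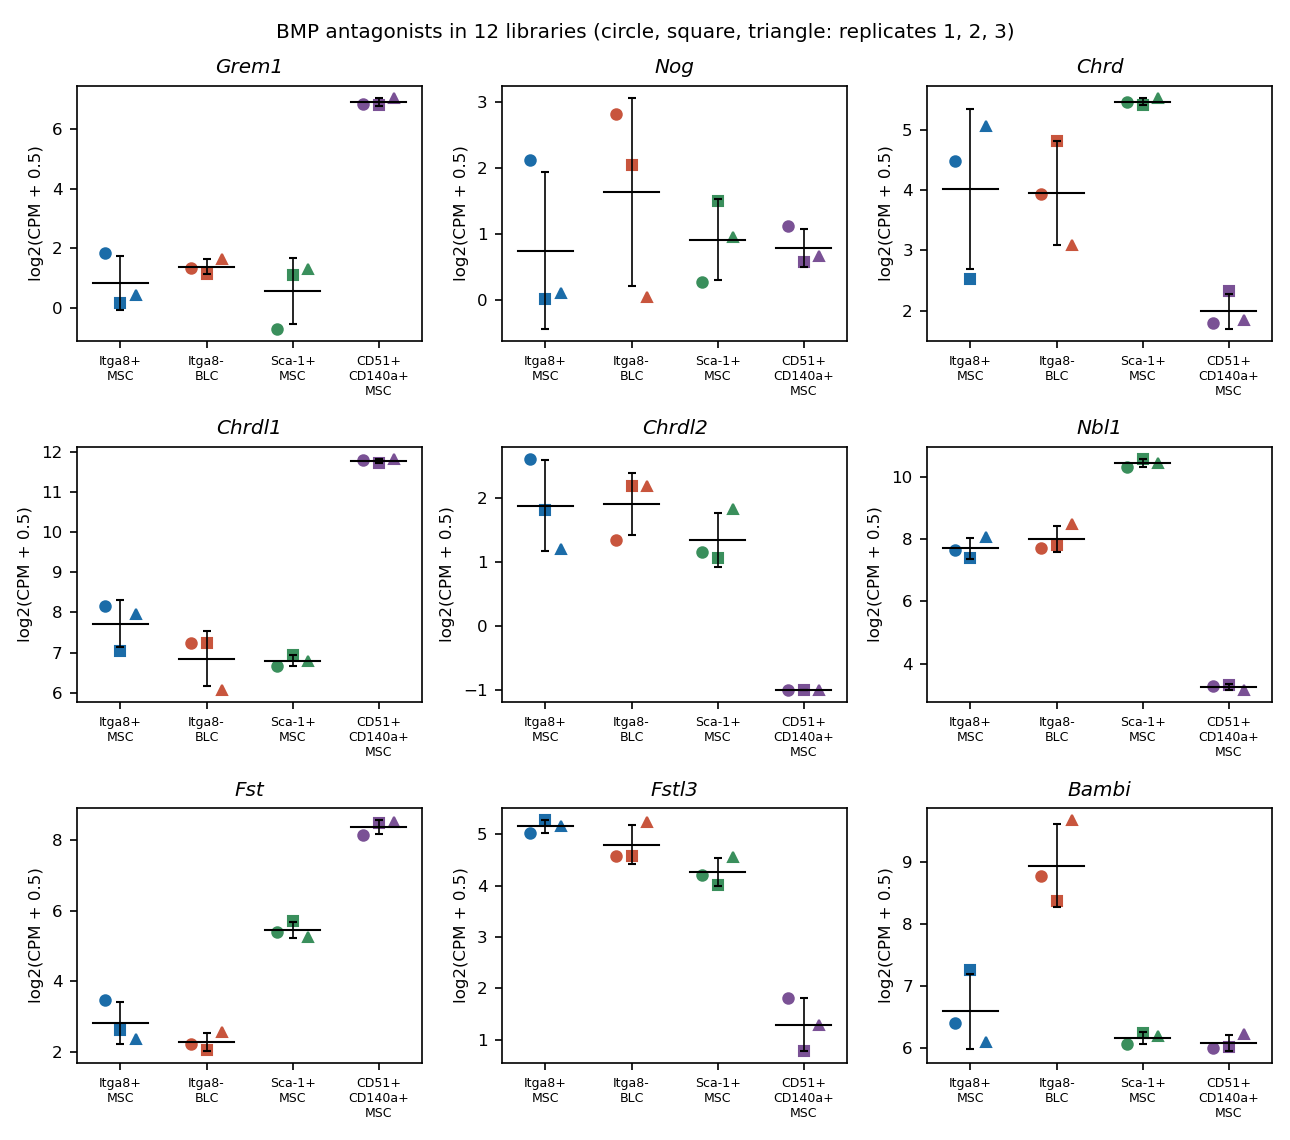
Each panel gives 1 antagonist as log2(CPM + 0.5) on the y axis against the 4 populations, with a symbol for each library, a line at the mean and bars of 1 SD of these log values. Chrdl1, Fst and Grem1 are highest in CD51+CD140a+ MSCs, Nbl1 and Chrd in Sca-1+ MSCs and Bambi in Itga8- BLCs.

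Bambi separated the Alcam+ populations. This pseudoreceptor gene on chromosome 18, itself known to be induced by BMP and TGF-β signals, had 437, 331 and 821 CPM in Itga8- BLCs. Itga8+ MSCs had 84.6, 153 and 68.4 CPM, Sca-1+ MSCs 66.3, 75.8 and 72.9 CPM, and CD51+CD140a+ MSCs 63.5, 64.2 and 74.5 CPM. Every Itga8- library was above every other library, while the other 3 populations overlapped. The log2 fold change of Itga8+ MSCs over Itga8- BLCs was -2.38 ± 0.388 (edgeR adjusted p = 0.00589), and without both libraries with few counts on long transcripts, one of which (Itga8- replicate 3) held the highest value, it was -2.30 (adjusted p = 0.00112). Itga8- BLCs were above Sca-1+ and CD51+CD140a+ MSCs by 2.89 ± 0.396 and 2.97 ± 0.398 (adjusted p = 0.000472 and 0.000192). The differences of Itga8+ MSCs from Sca-1+ and CD51+CD140a+ MSCs were 0.51 ± 0.37 and 0.60 ± 0.371 (adjusted p = 0.352 and 0.235). Osteoblast markers were in part high where Bambi was. Of the 10, 9 were called higher in Itga8- BLCs than in Itga8+ MSCs (2.16% of all genes), 7 higher than in Sca-1+ MSCs (14.5%) and 6 higher than in CD51+CD140a+ MSCs (20.4%). They summed to 44800 to 117000 CPM in Itga8- BLCs, of which Col1a1 made up 66600 ± 46000 CPM, against 2930 to 22100 CPM in the other libraries. Other members went another way than Bambi: Ibsp was called higher in CD51+CD140a+ MSCs (10100 ± 5140 CPM) than in Itga8- BLCs (3460 ± 1080 CPM), and Runx2, Phex and Spp1, named after their values were seen, were not called between these populations. Markers were also called where Bambi was not: 5 were higher and 1 lower in Itga8+ than in Sca-1+ MSCs (12.9% and 8.89% of all genes), 4 were higher and 1 lower in CD51+CD140a+ than in Itga8+ MSCs (14.3% and 21.2%), and 6 were higher and 1 lower in CD51+CD140a+ than in Sca-1+ MSCs (9.30% and 11.2%). Their part in the Bambi difference was not tested.

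Fstl3 (chr10:79777272-79782630, plus strand), a follistatin relative that binds activin and myostatin, was lowest in CD51+CD140a+ MSCs. It had 31.9, 38.3 and 35.2 CPM in Itga8+ MSCs, 23.4, 23.3 and 37.0 CPM in Itga8- BLCs, 17.9, 15.7 and 23.0 CPM in Sca-1+ MSCs, and 3.03, 1.23 and 1.93 CPM in CD51+CD140a+ MSCs. The populations from bone fragments were called above CD51+CD140a+ MSCs by 4.08 ± 0.396, 3.75 ± 0.391 and 3.19 ± 0.382 on the log2 scale for Itga8+ MSCs, Itga8- BLCs and Sca-1+ MSCs (edgeR adjusted p = 2.08e-05, 3.37e-05 and 0.000102). Every Itga8+ library lay above every Sca-1+ library, with a log2 fold change of 0.90 ± 0.351 that was not called (adjusted p = 0.102). The neighbours in the order, Itga8+ MSCs and Itga8- BLCs (0.33 ± 0.348, adjusted p = 0.826) and Itga8- BLCs and Sca-1+ MSCs (0.56 ± 0.349, adjusted p = 0.27), were not called. These values carry a limit of the annotation. Of the exon bases of Fstl3, 47.32% lie opposite exons of Prss57, which codes for a serine protease of neutrophil granules, and without strand the reads of the pair cannot be told apart. Prss57 was counted at 26.6 to 74.4 CPM in Itga8+ MSCs, 35.7 to 42 CPM in Itga8- BLCs, 13.3 to 15.6 CPM in Sca-1+ MSCs and 5.09 to 5.9 CPM in CD51+CD140a+ MSCs, so every bone-fragment library was above every CD51+CD140a+ library in Prss57, as in Fstl3. Myeloid and lymphoid markers followed this in part. Of the 9 tested, 7 were called higher in Itga8+ MSCs (21.2% of all genes) and 8 in Itga8- BLCs (20.4%) than in CD51+CD140a+ MSCs, but 1, Lyz2, was called higher in Sca-1+ than in CD51+CD140a+ MSCs (11.2%), where Fstl3 was called. The part of Prss57 in the Fstl3 counts was not tested.

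The 250 bases before the RefSeq start of Fstl3 (chr10:79777024-79777273, plus strand, GRCm38.p6) are given as the promoter without GGCGCC among the 4 that were matched.
Fstl3: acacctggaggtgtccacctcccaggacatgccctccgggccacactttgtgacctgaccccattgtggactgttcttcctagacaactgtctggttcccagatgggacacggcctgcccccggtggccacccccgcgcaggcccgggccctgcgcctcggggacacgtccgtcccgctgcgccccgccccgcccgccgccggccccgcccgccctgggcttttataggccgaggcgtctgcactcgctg
GTAAACA is not in this window either, and 71.2% of it is G or C. Promoter sequences were matched for these 4 of the 9 genes.

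Chrdl2 and Nog stayed low. Chrdl2 (chr7:100006172-100034728, plus strand), a chordin relative, had 5.59, 3.01 and 1.79 CPM in Itga8+ MSCs, 2.04, 4.03 and 4.02 CPM in Itga8- BLCs, and 1.71, 1.58 and 3.05 CPM in Sca-1+ MSCs. CD51+CD140a+ MSCs had no read in any of the 3 libraries, although these were the deepest. Against 3 counts per library, a mean of 0.0882 CPM there, Chrdl2 was at least 39.3-fold higher in Itga8+ MSCs, at least 38.1-fold in Itga8- BLCs and at least 24-fold in Sca-1+ MSCs, and all 3 differences were called (edgeR adjusted p = 7.91e-05, 8.14e-05 and 0.000145). The other 3 populations overlapped each other in Chrdl2. The 6 tendon markers were lowest in CD51+CD140a+ MSCs as a sum, at 83.4 to 113 CPM, as were Nbl1, Chrd, Fstl3 and Chrdl2. They summed to 3790 to 23500 CPM in the bone-fragment libraries. Against CD51+CD140a+ MSCs, all 6 were called higher in Itga8+ MSCs (21.2% of all genes) and 5 in Sca-1+ MSCs (11.2%). In Itga8- BLCs 5 were called higher (20.4%) and 1, Mkx, lower (14.9%), at 11.7 against 28.7 CPM. Mkx, named after its values were seen, was not called between Sca-1+ and CD51+CD140a+ MSCs. The part of the tendon markers in these results was not tested.

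Nog (chr11:89300638-89302332, minus strand), which codes for the classical BMP antagonist noggin, was detected in all 12 libraries without a population pattern that passed the test. It had 3.86, 0.519 and 0.578 CPM in Itga8+ MSCs and 6.57, 3.66 and 0.539 CPM in Itga8- BLCs. Sca-1+ MSCs had 0.719, 2.34 and 1.45 CPM and CD51+CD140a+ MSCs 1.69, 1.00 and 1.09 CPM. The highest values were those of Itga8- replicates 1 and 2 and of Itga8+ replicate 1. The SD was 1.91 CPM around 1.65 in Itga8+ MSCs and 3.02 CPM around 3.59 in Itga8- BLCs, a spread that covered the levels of the others. Without both libraries with few counts on long transcripts, Nog passed the limits as higher in Itga8- BLCs than in Sca-1+ MSCs (log2 fold change 1.77, edgeR adjusted p = 0.0991) and than in CD51+CD140a+ MSCs (2.02, adjusted p = 0.0542). At the level of single genes, the exact two-sided permutation test of 3 against 3 libraries cannot go below 0.1, and it gave 0.1 for every pair of populations whose libraries did not overlap.

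The genes whose levels ran closest to each antagonist over the 12 libraries were found among 11447 genes with at least 10 CPM in a library. For Grem1 these were Gabbr2 (root mean square difference 0.57 in centred log2(CPM + 0.5)), Pdzrn4 (0.62) and Gpr50 (0.64). For Chrdl1 they were Hvcn1 (0.42), Podnl1 (0.43) and Il12rb1 (0.44), and for Fst Prr16 (0.52), Tmem255b (0.56) and Rbpms (0.57). Nbl1 was followed most closely by Hspb8 (0.50), Clip4 (0.57) and Ndrg4 (0.62), and Chrd by Il16 (0.23), Gm16596 (0.35) and Lrrc8d (0.37). Fstl3 had Rtkn (0.37), Adk (0.38) and Ninj1 (0.43), and Bambi had Rom1 (0.21), Gimap6 (0.36) and Mageh1 (0.37). No antagonist was among the 3 closest genes of another.

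The other secreted or membrane modulators of BMP and activin signalling were called in both directions in every comparison. Of 18 listed, 15 were tested. Between Itga8+ and CD51+CD140a+ MSCs 6 of 15 were higher in the former and 4 in the latter (21.2% and 14.3% of all genes), with a median log2 fold change of 0.35 beside 0.18 over all genes. Between Itga8+ and Sca-1+ MSCs 4 and 5 were called (12.9% and 8.89% of all genes, median -0.34 beside 0.16), and between Itga8+ MSCs and Itga8- BLCs 2 and 2 (1.66% and 2.16%, median -0.21 beside 0.08). Between Itga8- BLCs and Sca-1+ MSCs 5 were higher in the former and 7 in the latter (14.5% and 11.9%), between Itga8- BLCs and CD51+CD140a+ MSCs 5 and 3 (20.4% and 14.9%), and between Sca-1+ and CD51+CD140a+ MSCs 6 and 3 (11.2% and 9.30%). Smoc2, a matricellular protein, followed the bone-fragment populations, at 676 ± 93.8 CPM in Itga8+ MSCs, 982 ± 98.7 CPM in Itga8- BLCs, 237 ± 7.85 CPM in Sca-1+ MSCs and 24.8 ± 2.58 CPM in CD51+CD140a+ MSCs. Its relative Smoc1 was highest in CD51+CD140a+ MSCs (137 ± 51.1 CPM) and at 78.4 ± 34.7 CPM in Itga8- BLCs. Bmper, a BMP-binding regulator, was 172 ± 10.4 CPM in CD51+CD140a+ MSCs, 87.3 ± 21.6 CPM in Sca-1+ MSCs and at most 14 CPM in any Alcam+ library. Fstl1 was 2240 ± 48.3 CPM in Sca-1+ MSCs and 1680 ± 88.6 CPM in CD51+CD140a+ MSCs, against 559 ± 267 CPM in Itga8+ MSCs and 167 ± 46.6 CPM in Itga8- BLCs, and was called between the last pair (log2 fold change 1.74 ± 0.339, edgeR adjusted p = 0.0171). Twsg1, which binds chordin and BMPs, was 694 ± 55.5 CPM in Sca-1+ MSCs and between 121 and 393 CPM in all other libraries, and the protease gene Htra1 was 985 ± 53.5 CPM in Sca-1+ MSCs and 780 ± 85 CPM in Itga8+ MSCs, a pair that was not called (adjusted p = 0.322). Among the chordin-cleaving proteases, Bmp1 was 625 ± 153 CPM in Itga8- BLCs and 131 ± 85.9 CPM in Itga8+ MSCs (log2 fold change of Itga8+ over Itga8- -2.26 ± 0.504, edgeR adjusted p = 0.036), and Tll2 did not exceed 3.8 CPM.

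Ligands were called in both directions in every comparison too. Of 24 BMP, GDF and activin ligands listed, 20 were tested, and between Itga8- BLCs and CD51+CD140a+ MSCs 10 were higher in the former and 3 in the latter (20.4% and 14.9% of all genes), with a median log2 fold change of 1.27 beside 0.09 over all genes. For Itga8+ MSCs the counts were 3 higher and 4 lower than in Itga8- BLCs (1.66% and 2.16% of all genes, median -0.49 beside 0.08), 4 and 3 beside Sca-1+ MSCs (12.9% and 8.89%, median 0.21 beside 0.16), and 8 and 5 beside CD51+CD140a+ MSCs (21.2% and 14.3%, median 0.71 beside 0.18). Sca-1+ MSCs had 4 higher and 7 lower than Itga8- BLCs (11.9% and 14.5%), and 7 higher and 4 lower than CD51+CD140a+ MSCs (11.2% and 9.30%). Bmp6 and Bmp4 were highest in CD51+CD140a+ MSCs, where Chrdl1, Fst and Grem1 were: Bmp6 had 614, 600 and 870 CPM there and at most 44.5 CPM in any other library, and Bmp4 had 374, 318 and 508 CPM there, 75.5, 94.8 and 85.4 CPM in Sca-1+ MSCs and at most 34.6 CPM in the Alcam+ libraries. Bmp7 was 200 ± 90.8 CPM in Itga8+ MSCs and 198 ± 60.1 CPM in Itga8- BLCs, against 2.63 ± 0.591 CPM in Sca-1+ MSCs and at most 0.847 CPM in CD51+CD140a+ MSCs. Bmp3, which opposes osteogenic BMPs, was 226 ± 56.8 CPM in Itga8- BLCs and at most 6.76 CPM in any other library. Bmp2 was also highest in Itga8- BLCs, at 134 ± 38.2 CPM, and Bmp5 in CD51+CD140a+ MSCs, at 147 ± 6.29 CPM, although 46.66% of the exon bases of Bmp5 lie opposite exons of Gm26903. Per exon length, the 9 antagonists summed to 6.24 ± 0.246 times the TPM of the 24 ligands in Sca-1+ MSCs, 1.52 ± 0.246 times in CD51+CD140a+ MSCs, 1.31 ± 0.407 times in Itga8- BLCs and 1.06 ± 0.102 times in Itga8+ MSCs (SD, n = 3). The 3 Sca-1+ libraries, at 5.96 to 6.43, lay apart from the other 9, at 0.907 to 1.72, and this ratio of transcripts is a description with no test. Nbl1 made up 92.4 ± 0.24% of the antagonist sum in Sca-1+ MSCs, and Bmp3 was counted among the ligands. The ratio was not computed with the longest transcript.

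Of 13 listed receptors and co-receptors 12 were tested, and 7 were called higher in Sca-1+ than in Itga8+ MSCs (8.89% of all genes), with a median log2 fold change of -1.60 for Itga8+ over Sca-1+ MSCs beside 0.16 over all genes. Sca-1+ MSCs also had 7 higher than Itga8- BLCs (11.9% of all genes, median of Itga8- BLCs over Sca-1+ MSCs -1.49 beside 0.12). No receptor was called the other way by edgeR in either comparison, with 0 at an unadjusted p under 0.05. Between Itga8+ MSCs and Itga8- BLCs 1 was called, Acvr2b (named after its value was seen), higher in Itga8- BLCs (2.16% of all genes). CD51+CD140a+ MSCs had 5 higher and 1 lower than Itga8+ MSCs (14.3% and 21.2% of all genes), 6 higher and 2 lower than Itga8- BLCs (14.9% and 20.4%), and 3 higher and 2 lower than Sca-1+ MSCs (9.30% and 11.2%). The type II receptor Bmpr2 was 21.2 ± 3 CPM in Sca-1+ MSCs and 18.6 ± 4.15 CPM in CD51+CD140a+ MSCs, against 5.03 ± 2.13 CPM in Itga8+ MSCs and 6.72 ± 2.57 CPM in Itga8- BLCs. Bmpr1a was 134 ± 12.5 CPM in Sca-1+ MSCs and 106 ± 7.39 CPM in CD51+CD140a+ MSCs, with 21 CPM in the lowest and 82.6 CPM in the highest Itga8+ library. Acvrl1 was 33.7 ± 3.97 CPM in Sca-1+ MSCs, 39.9 ± 5.33 CPM in CD51+CD140a+ MSCs and at most 5.37 CPM in the Alcam+ libraries. The activin receptor gene Acvr2a was 175 ± 33.5 CPM in CD51+CD140a+ MSCs, the co-receptor gene Eng 55.4 ± 3.95 CPM, and Rgmb reached 54.1 ± 6.07 CPM in Sca-1+ MSCs, its highest level. These are in part long transcripts, and the part of the libraries with few counts on such transcripts was not tested for them.

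Of the 8 Smads, 2 were called lower in Itga8+ MSCs than in each other population (14.3% of all genes against CD51+CD140a+ MSCs, 8.89% against Sca-1+ MSCs and 2.16% against Itga8- BLCs). In Itga8- BLCs 1 was called higher than in Sca-1+ MSCs (14.5%), 1 lower than in CD51+CD140a+ MSCs (14.9%), and 1 each way between Sca-1+ and CD51+CD140a+ MSCs (11.2% and 9.30%). The inhibitory Smad6, which is also among the target genes, was 62.6 ± 14.1 CPM in CD51+CD140a+ MSCs, 25.1 ± 6.21 CPM in Itga8- BLCs, 17.3 ± 2.12 CPM in Sca-1+ MSCs and 6.3 ± 4.04 CPM in Itga8+ MSCs, and was called in all comparisons but that of Itga8- BLCs with Sca-1+ MSCs. Smad3 was 47.6 ± 5.48 CPM in Sca-1+ MSCs and was called higher there than in Itga8+ and CD51+CD140a+ MSCs. Smad9 stayed at or under 3.3 CPM and was called higher in Itga8- BLCs than in Itga8+ and Sca-1+ MSCs, and higher in CD51+CD140a+ than in Itga8+ MSCs. Of the 11 target genes, which BMP signalling is known to induce, 2 were higher in Itga8+ and 5 in CD51+CD140a+ MSCs (21.2% and 14.3% of all genes), with a median log2 fold change of -0.29 beside 0.18 over all genes. Between Itga8+ MSCs and Itga8- BLCs 1 was higher in each (1.66% and 2.16%, median -0.14 beside 0.08), and between Itga8+ and Sca-1+ MSCs 2 were higher in each (12.9% and 8.89%, median 0.12 beside 0.16). Itga8- BLCs had 3 higher and 2 lower than Sca-1+ MSCs (14.5% and 11.9%), and 2 higher and 3 lower than CD51+CD140a+ MSCs (20.4% and 14.9%), and Sca-1+ MSCs had 1 higher and 4 lower than CD51+CD140a+ MSCs (11.2% and 9.30%). Id4 was 268 ± 28.7 CPM in CD51+CD140a+ MSCs and at most 30.8 CPM in any other library. Id3 was 1010 ± 154 CPM there and 423 ± 244 CPM in Itga8+ MSCs (edgeR adjusted p = 0.0626), whereas Id2 was lowest there, at 62.7 ± 4.24 CPM, and ranged from 144 to 746 CPM in Itga8+ MSCs. Msx1 was 62.8 ± 9.97 CPM in Sca-1+ MSCs and 48.8 ± 9.26 CPM in Itga8+ MSCs, against 10.6 ± 1.86 CPM in Itga8- BLCs, and Dlx5 was 36.7 ± 2.42 CPM in CD51+CD140a+ MSCs and 22 ± 13.6 CPM in Itga8- BLCs.

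**Figure D4:**
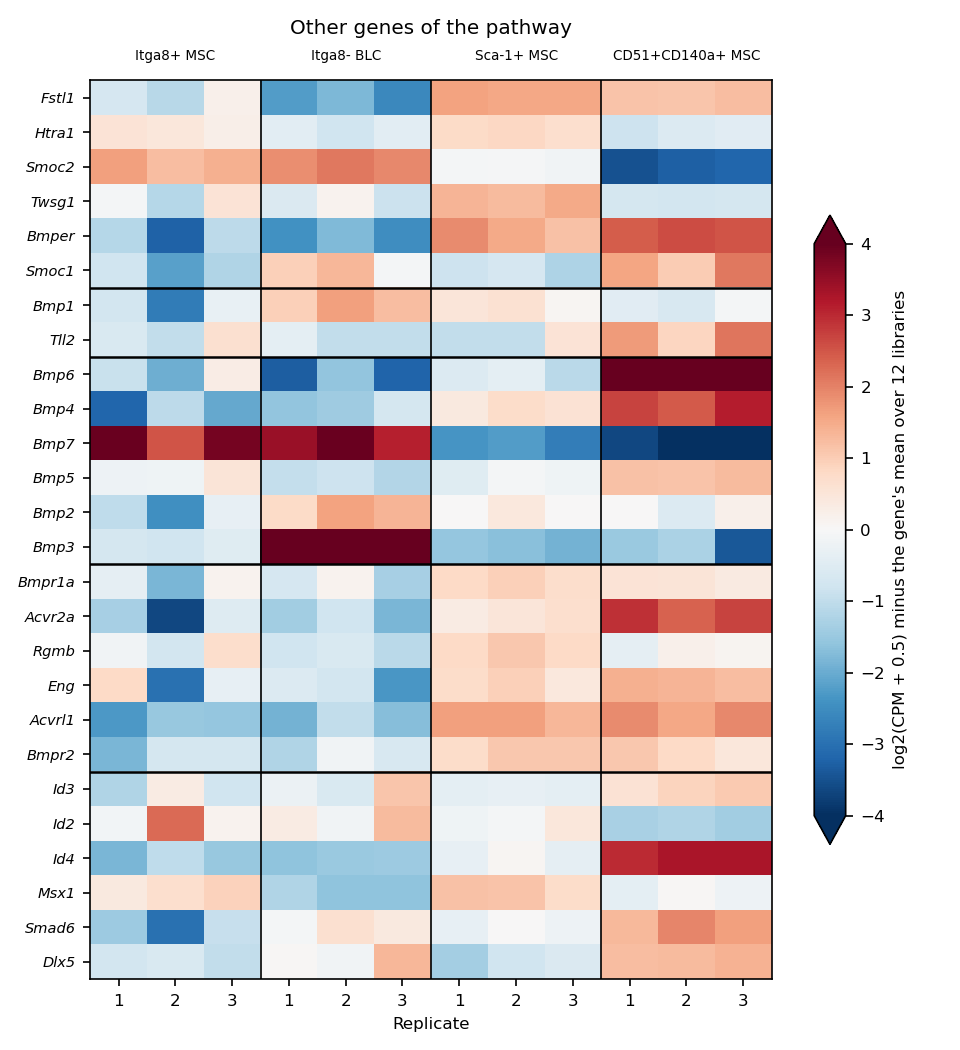
Rows are the named modulators, chordin-cleaving proteases, ligands, receptors and target genes (separated by lines), columns the 12 libraries by population, and colour the log2(CPM + 0.5) minus the mean of the gene over the libraries, on a scale from -4 to 4. Bmp6, Bmp4, Bmper and Id4 are high in CD51+CD140a+ MSCs, Bmp7 in both Alcam+ populations and Bmp3 in Itga8- BLCs.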

How the data were processed

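RNA was isolated by the authors from 2000 sorted cells per library, amplified as cDNA with SMART-Seq v4, made into Nextera XT libraries and sequenced on a NextSeq 500. What the authors deposited is 1 file per library with unnormalized read counts for each Ensembl gene. The study's methods name TopHat and Bowtie2 with mm10, whereas the submitters' processing notes name FastQC 0.11.7, Trimmomatic 0.38, HISAT2 2.1.0, SAMtools 1.9 and featureCounts 1.6.3 with mm10. The annotation release and the use of strand are not given in the sources used here, and these kits do not mark strand. PCR copies are counted as reads, so floors cover counting error only.

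Counts of 12 libraries were fitted in 1 edgeR 4.0.16 quasi-likelihood model (R 4.3.3, TMM factors, genes reaching 0.5 CPM in 1 or more libraries), and all 6 pairs of populations were compared at an FDR (Benjamini-Hochberg) under 0.1 and a fold change above 2. A level of 3 counts per library was the floor. TPM used union exon lengths of GENCODE M21, which matched 49326 of the 49585 identifiers. Alternatives were DESeq2 1.42.0, limma-trend (limma 3.58.1), RLE factors, library totals alone, a filter of 1 count in all or of 10 counts in 3 libraries, only the populations compared, a replicate block, thinned counts, an FDR under 0.05, each library left out, the longest transcript for TPM and, added after seeing the data, leaving out the 2 libraries with few counts on long transcripts. The fit was tested on simulated data. Groups came from the sample labels. Beside the 9 antagonists, the text names the genes of the sorting antigens, from the lists genes among the called ones of highest mean CPM (at most 6, for Smads, proteases and markers at most 3), the exceptions it states, and the 3 genes closest to each antagonist with at least 10 CPM. Members and lists were chosen with earlier results of these data known. Promoter sequences came from RefSeq (GRCm38.p6). Python 3.11.15 and matplotlib 3.10.9 were used for figures.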

Additional observations from a re-analysis of the deposited data

How the results depend on the processing

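No antagonist called in 1 of the 6 comparisons lost its call or changed direction under any alternative run. The count of called antagonists between Itga8+ MSCs and Itga8- BLCs was 1 to 2 with 1 library left out, the second being Chrdl1 without Itga8+ replicate 2. Between Itga8- BLCs and Sca-1+ MSCs it was 5 in place of 3 without the 2 libraries with few counts on long transcripts, with Nog and Chrd added. With the longest transcript in place of union exons, the summed antagonist TPM was 658.3 in Itga8- BLCs, 2497 in Sca-1+ and 3212 in CD51+CD140a+ MSCs, Nbl1 made up 90.92% in Sca-1+ MSCs and Chrdl1 83.82% in CD51+CD140a+ MSCs, so the order of the sums in the last pair of populations changed. Library totals alone moved the median over all genes (log2) from 0.08 to 0.34 between Itga8+ MSCs and Itga8- BLCs and from 0.09 to -0.24 between Itga8- BLCs and CD51+CD140a+ MSCs, with the same antagonist calls there.

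Fold changes of uncalled antagonists crossed 0 as follows (log2, first population over second). With limma-trend, Chrdl2 was -0.04 between Itga8+ MSCs and Itga8- BLCs, as it was with thinned counts, and Nog -0.31 and -0.18 between Itga8+ MSCs and Sca-1+ or CD51+CD140a+ MSCs. With library totals alone, Chrdl1 was -0.04 between Itga8- BLCs and Sca-1+ MSCs and Bambi -0.05 between Sca-1+ and CD51+CD140a+ MSCs. Without the 2 libraries, Grem1 and Nbl1 were 0.14 each between Itga8+ MSCs and Itga8- BLCs. With 1 library left out, the ranges were -0.48 to 0.37 for Chrdl2 and -0.30 to 0.82 for Chrd between Itga8+ MSCs and Itga8- BLCs, -0.74 to 0.81 for Grem1 and -1.45 to 0.60 for Nog between Itga8+ and Sca-1+ MSCs, -1.20 to 0.84 for Nog between Itga8+ and CD51+CD140a+ MSCs, -0.07 to 0.45 for Chrdl1 between Itga8- BLCs and Sca-1+ MSCs, and -0.21 to 0.58 for Nog between Sca-1+ and CD51+CD140a+ MSCs.

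Deviations of same-numbered libraries from their population means correlated from -0.70 to 0.30 across genes. Between Itga8+ MSCs and Itga8- BLCs, differently numbered libraries reached 0.71 (replicates 2 and 3) and 0.74 (replicates 3 and 2). The value of 0.71 joins the 2 libraries with few counts on long transcripts. These correlations therefore cannot decide whether replicate numbers pair the libraries. With a replicate block 1, 2, 7, 3, 8 and 7 antagonists were called in the 6 comparisons, as without it, and Nog was -0.48 between Itga8+ and Sca-1+ MSCs and -0.02 between Itga8+ and CD51+CD140a+ MSCs. Among the lowest genes, Nog ranged from 9 to 132 reads within the 3 Itga8- libraries. For Chrdl2 in CD51+CD140a+ MSCs, depth limits the statement to a level of up to 3 counts per library, or 0.0882 CPM on average.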
